A study of Mus musculus with 14 samples.

Results

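A set of 10 genes that build and mark the epithelium lining the uterus were followed through a study of folinic acid and the gene Folr4 in pregnant mice. They are the claudins Cldn1, Cldn3, Cldn4, Cldn7 and Cldn10, the keratins Krt7, Krt8, Krt18 and Krt19, and the adhesion molecule Epcam. Members were the probe sets whose single gene symbol was one of these names, 19 probe sets for 10 genes among 45037 probe sets and 18194 genes with 1 symbol. Each gene was read through the probe set with its highest mean log2 signal, and all 10 genes had 1 above the signal filter of 134.

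Uteri were taken on day 3.5 of gestation from C57BL/6 females, counting the morning of the vaginal plug as day 0.5, and RNA of each was put on 1 Affymetrix array. Wild-type females had received saline (n = 4) or folinic acid (n = 3), and Folr4-/- females, called mutants here, saline (n = 3) or folinic acid (n = 4). Folinic acid is a reduced folate, injected into the peritoneum 2 times at 12.5 mg/kg each, the first 10 days and the second 3 days ahead of mating. The mutants are homozygous for a Folr4 mutation whose molecular nature is not given in the sources used here, and no promoter or Cre that would limit it to 1 cell type is named in the labels. All groups share the strain, the gestation day and a chow diet.

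Claudins are membrane proteins of the tight junction, the seal around the apex of epithelial cells, and which claudins a cell makes sets what can pass between its cells. Keratins are the intermediate filaments of epithelium and assemble as pairs of a type I and a type II chain, while Epcam is an adhesion molecule of simple epithelia that binds Cldn7 at the lateral membrane. In the mouse uterus the luminal epithelium loosens its polarity and remodels its junctions around the time when the embryo attaches.

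Both pairs of neighbouring genes among the members are shown by their promoters, because Krt8 and Krt18 varied together across the uteri and Cldn3 and Cldn4 did not. Each sequence is the 250 bases before the RefSeq transcription start of the gene in GRCm38.p6, and 9 of 10 members were listed (Krt19 was not). Krt8 lies at chr15:102004343-102004592 on the minus strand and Krt18 at chr15:102027966-102028215 on the plus strand, with 0 protein-coding genes between them. Cldn4 lies at chr5:134946935-134947184 on the minus strand and Cldn3 at chr5:134985964-134986213 on the plus strand, also with 0 genes between them. Capitals mark a GC box (GGGCGG) or an AP-1 match (TGANTCA), each searched on both strands and nowhere overlapping the other in these windows.
Krt8: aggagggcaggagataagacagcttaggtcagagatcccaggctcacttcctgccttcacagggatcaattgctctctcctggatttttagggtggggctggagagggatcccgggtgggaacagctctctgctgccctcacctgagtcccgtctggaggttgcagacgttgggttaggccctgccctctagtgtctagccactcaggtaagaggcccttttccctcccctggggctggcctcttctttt
Krt18: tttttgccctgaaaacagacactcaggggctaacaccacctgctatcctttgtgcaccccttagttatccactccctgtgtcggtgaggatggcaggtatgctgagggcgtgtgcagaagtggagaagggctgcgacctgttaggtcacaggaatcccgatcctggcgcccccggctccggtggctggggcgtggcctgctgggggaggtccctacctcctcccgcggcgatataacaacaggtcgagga
Cldn3: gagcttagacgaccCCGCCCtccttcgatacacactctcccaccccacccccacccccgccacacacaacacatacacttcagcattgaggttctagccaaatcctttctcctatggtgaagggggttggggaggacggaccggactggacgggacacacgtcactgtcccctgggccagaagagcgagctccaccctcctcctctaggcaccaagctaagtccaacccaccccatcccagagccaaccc
Cldn4: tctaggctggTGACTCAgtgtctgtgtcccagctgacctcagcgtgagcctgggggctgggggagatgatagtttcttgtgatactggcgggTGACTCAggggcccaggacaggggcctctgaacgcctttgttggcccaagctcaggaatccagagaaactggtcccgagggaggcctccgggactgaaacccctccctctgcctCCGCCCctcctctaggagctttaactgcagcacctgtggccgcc
The Krt8 and Krt18 windows held 0 GC boxes and 0 AP-1 matches, the Cldn3 window 1 GC box, and the Cldn4 window 1 GC box and 2 AP-1 matches. Over all 32851 promoters of the same length, 32.74% held a GC box and 6.749% an AP-1 match. A match is a run of letters and not a measured site.

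Facts of the whole series were as follows. Median signal lay between 130 and 157 on the 14 arrays, and the 3-prime to 5-prime actin ratio, which grows as RNA degrades or labelling shortens, lay between 1.54 and 3.64 with the highest value in wild-type saline replicate 3. The targeted gene Folr4 was below the filter, at 13.5 to 72.4 in wild type and 6.14 to 70.2 in mutants (exact permutation p = 0.0991, two-sided, 7 against 7), so it does not check the labels. Markers of stroma (8 of 8), smooth muscle (6 of 6), mesothelium (7 of 7), endothelium (6 of 6) and luminal epithelium (7 of 8) were above the filter, as in a whole uterus. So were 2 of 7 gland markers (Foxa2 and Cxcl15), 2 of 5 oviduct markers (Ovgp1 and Tppp3) and 1 of 5 preimplantation embryo markers (Eomes). The 2 oviduct genes summed to between 2032 and 16249 over the arrays. For glands the markers Prss28, Prss29, Ttr, Lif and Spink1 were below the filter, for the preimplantation embryo Cdx2, Pou5f1, Nanog and Zp3, and for oviduct Foxj1, Dynlrb2 and Tekt1. The members are epithelial genes read in whole tissue, where fewer epithelial cells and less RNA per cell cannot be told apart.

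The 10 genes differed in how far they spread among uteri of 1 group. Cldn10, a claudin that forms ion-selective pores, had a pooled within-group SD of 1.08 on the log2 scale, at percentile 99.2 of the 11269 genes measured, and its highest signal was 10.7-fold its lowest. Cldn3, a claudin that seals the junction, stood at percentile 94.8 with a 5.45-fold range, and Cldn1, the barrier claudin of skin and many other epithelia, at percentile 94.1 with a 4.98-fold range. At the other end was Cldn7, the claudin that partners Epcam, with an SD of 0.24, percentile 37.4 and a 1.74-fold range, beside a median SD of 0.27 over all genes. The other 6 members lay between percentile 71.5 (Krt7) and 87.2 (Krt8).

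**Figure D1:**
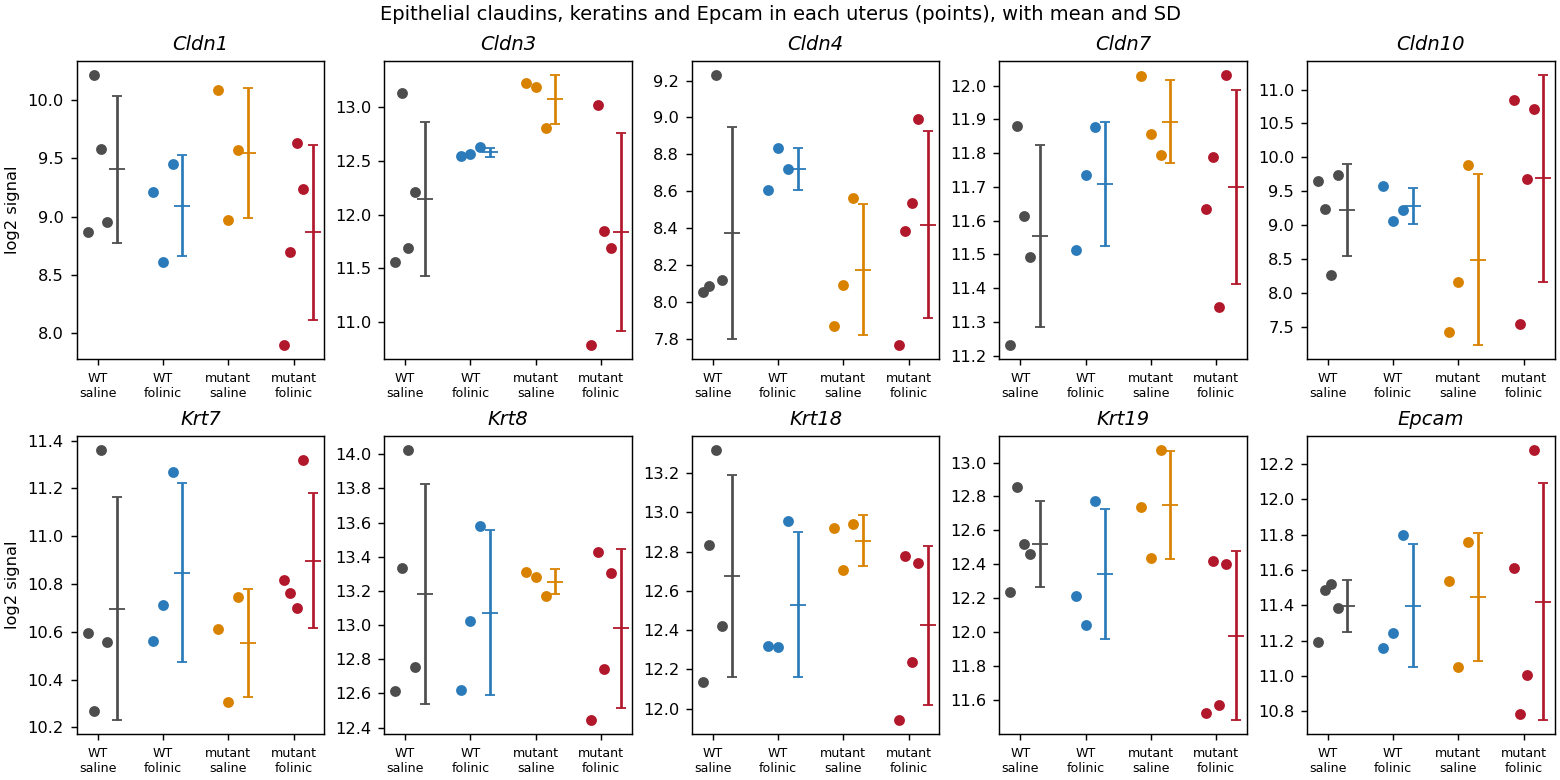
Log2 signal (vertical axis) of each member gene in each uterus, by group; points are single arrays and the bar beside them is the group mean and SD (n = 4, 3, 3 and 4 from left to right). The mutant folinic acid uteri spread widely for Cldn3 and Cldn10, and Krt19 is the gene whose mutant saline and mutant folinic acid points do not overlap.

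Among the sealing claudins, Cldn3 had the widest range. Its signal in wild type was 3014, 8997, 3290 and 4734 with saline and 5980, 6059 and 6339 with folinic acid. In mutants it was 9592, 9324 and 7166 with saline and 1759, 8339, 3680 and 3297 with folinic acid. All 3 mutant saline uteri were high, and 3 of the 4 mutant folinic acid uteri were below all of them, while replicate 2 of that group lay within their range. The 3 wild-type folinic acid uteri sat close together, inside the wide range of wild type with saline. Group means were 5009 ± 2764 (SD, n = 4), 6126 ± 189 (SD, n = 3), 8694 ± 1330 (SD, n = 3) and 4269 ± 2838 (SD, n = 4) in the same order.

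Cldn4, the neighbour of Cldn3 and also a sealing claudin, had 266, 272, 601 and 278 in wild type with saline and 390, 457 and 423 with folinic acid. The mutant signals were 234, 273 and 379 with saline and 217, 333, 371 and 508 with folinic acid. One wild-type saline uterus stood above all others, and the groups overlapped in each of the 4 pairwise comparisons. Cldn1 ranged from 238 to 1188 with a median of 599 over the 14 uteri, and both of these extremes fell in different groups, mutant with folinic acid for the lowest and wild type with saline for the highest. The 3 further probe sets of Cldn1 were below the filter and followed the measured one loosely at best (r = -0.79, 0.14 and 0.35 over 14 arrays). The one at -0.79 had signals of only 0.462 to 5.31, near the floor of 1, so its r says little about Cldn1. Cldn7 ranged from 2404 to 4189 with a median of 3472, and its group means ran from 3047 ± 570 (SD, n = 4) in wild type with saline to 3813 ± 328 (SD, n = 3) in mutants with saline.

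Cldn10 spread the most of the 10. In wild type it was at 806, 602, 309 and 854 with saline and at 766, 533 and 597 with folinic acid. Mutant uteri had 172, 288 and 944 with saline and 1832, 186, 821 and 1679 with folinic acid. Both mutant groups held very low and high uteri, so they overlapped, and mutant folinic acid replicate 2 was near mutant saline replicates 1 and 2 and far below replicate 3. RefSeq lists more than 1 start for Cldn10, whose products differ in the ions they pass, and which of these its single probe set reads was not examined.

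The keratins were read in the order of their pairing. Krt8, the type II keratin of simple epithelia, had 6270, 10311, 16693 and 6923 in wild type with saline and 6287, 8320 and 12241 with folinic acid. In mutants Krt8 was at 10162, 9967 and 9213 with saline and at 5566, 11024, 6862 and 10134 with folinic acid. The 3 mutant saline uteri were alike, and they lay inside the range of each other group. Krt18, the type I partner of Krt8, had 4500, 7287, 10219 and 5480 in wild type with saline and 5110, 5092 and 7949 with folinic acid. Mutant Krt18 was 7745, 6676 and 7852 with saline and 3930, 7029, 4836 and 6839 with folinic acid. The same uteri were high and low as for Krt8, wild-type saline replicate 3 highest and mutant folinic acid replicate 1 lowest.

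Krt19, a tailless type I keratin that can pair with Krt8, had 4833, 7406, 5876 and 5645 in wild type with saline and 4743, 4217 and 7004 with folinic acid. In mutants Krt19 was at 6843, 5541 and 8633 with saline and at 2946, 5479, 3046 and 5417 with folinic acid. All 4 mutant folinic acid values lay below all 3 mutant saline values, though 5479 against 5541 is a narrow gap, and the other groups overlapped. Krt7, another type II keratin of glandular and ductal epithelia, ranged from 1234 to 2633 with a median of 1670. Epcam ranged from 1761 to 4981 with a median of 2768, and both extremes were in mutants with folinic acid, whose group was the widest at 2981 ± 1457 (SD, n = 4). A second Epcam probe set tracked the first weakly (r = 0.37), whereas the further probe sets of Cldn3 (r = 0.98 to 0.995) and Krt8 (r = 0.98 and 0.99) followed theirs closely.

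**Figure D2:**
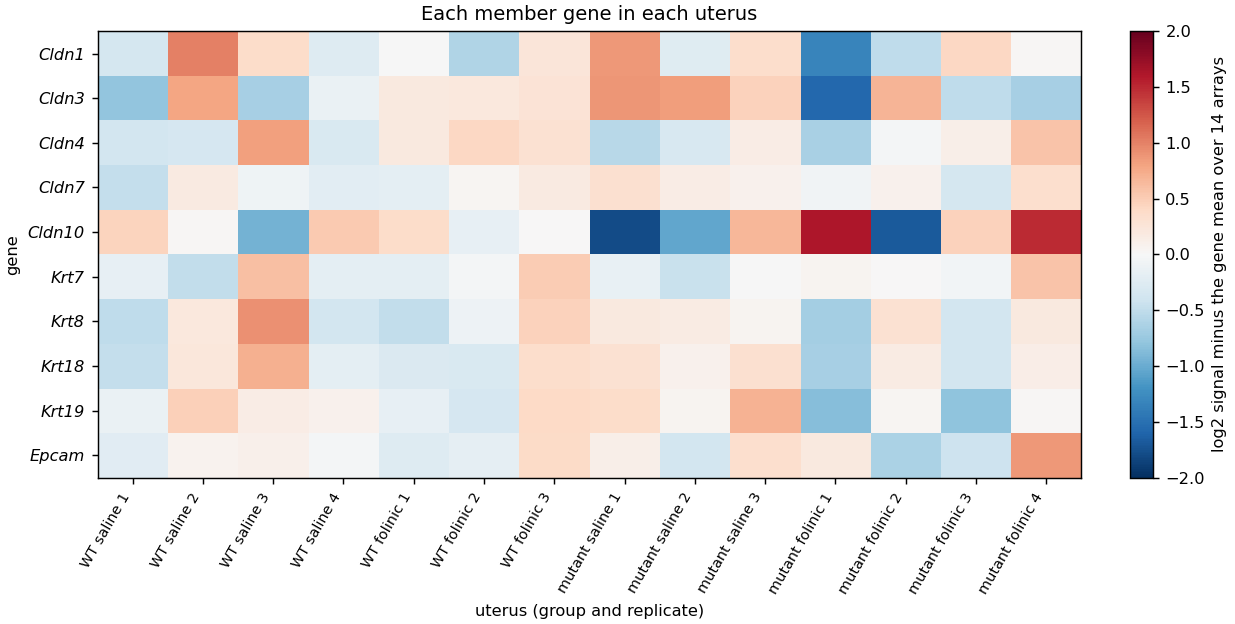
Log2 signal of each member (rows) in each uterus (columns) as a difference from the mean of that gene over 14 arrays, red above and blue below. Krt8 and Krt18 share their colours across the row, Cldn3 and Cldn10 lie on opposite sides of their means in the mutant uteri other than mutant saline replicate 3, and mutant folinic acid replicate 2 looks like mutant saline replicates 1 and 2 for both.

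The comparison of folinic acid with saline in mutants asks how the uterus of a Folr4 mutant responds to added folate. None of the 10 members passed limma at an adjusted p of 0.05, and neither did any of the 22519 probe sets tested (0% in either direction). Cldn3 had a log2 difference of -1.24 ± 0.42 (SE), 0.424-fold, with an unadjusted p of 0.00924 and an adjusted p of 0.250. Its other 3 probe sets gave -1.36, -1.31 and -1.17. The adjusted p of Cldn3 ranged from 0.0306 to 0.491 over the settings tried. Krt19 had -0.77 ± 0.25, 0.586-fold, with an unadjusted p of 0.00855 and an adjusted p of 0.249 (0.0707 to 0.487 over the settings). These were the 2 of 10 members with an unadjusted p under 0.05 on the lower side, where 6.94% of the genes measured also lay, and 0 of 10 were on the higher side, against 6.39%. Krt19 was the 1 member whose groups did not overlap, and 5.76% of all genes were likewise separated on the lower side and 4.97% on the higher.

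The remaining 8 members had differences whose 95% intervals included 0. Cldn10 was at 1.20 ± 0.68 with a 95% interval from -0.25 to 2.66, Cldn1 at -0.68 ± 0.40, Krt18 at -0.43 ± 0.27 and Krt7 at 0.34 ± 0.25. Krt8 was at -0.27 ± 0.32, Cldn4 at 0.24 ± 0.31, Cldn7 at -0.19 ± 0.18 and Epcam at -0.03 ± 0.29. In all 7 members were lower and 3 higher with a median of -0.23, where of all genes 49.8% were lower and 50.2% higher and the median was 0.001.

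Mutant folinic acid replicate 2 set how firmly this comparison could be read. Without it Cldn3 fell by 1.64 ± 0.34 on the log2 scale and passed (adjusted p = 0.0306), as did its other 3 probe sets (adjusted p = 0.0271, 0.0251 and 0.0305). Of all probe sets 1.1% were then called higher and 1.84% lower, 662 in total, so Cldn3 was 1 among many. Cldn10 was at 1.92 ± 0.52 (adjusted p = 0.0647) and Krt19 at -0.92 ± 0.26 (adjusted p = 0.0707) without that array. Leaving out mutant folinic acid replicate 1, the uterus with the lowest Cldn3, gave -0.89 ± 0.37 for Cldn3 (adjusted p = 0.491), -0.62 ± 0.26 for Krt19 and 0.82 ± 0.69 for Cldn10. No label sets either array apart, and all 4 were kept.

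**Figure D3:**
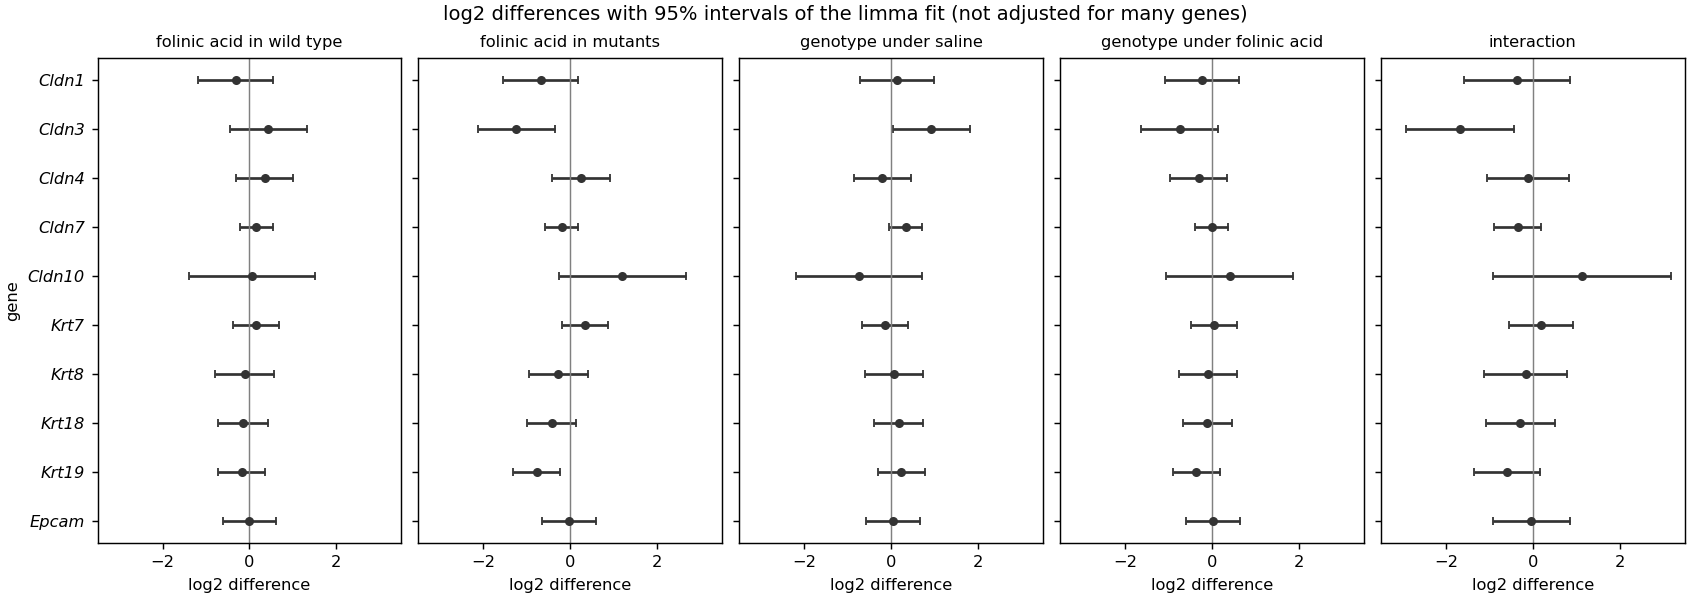
Log2 differences (horizontal axis) of the 10 members in the 4 pairwise comparisons and the interaction, with 95% intervals of the limma fit that are not adjusted for the number of genes. Cldn3 lies left of 0 for folinic acid in mutants and for the interaction, and right of 0 for genotype under saline; none of these passed after adjustment.

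Folinic acid in wild type asks what the supplement did in a normal uterus. None of 10 members passed (0% of probe sets were called in either direction) and 0 of 10 had an unadjusted p under 0.05, beside 1.23% of genes higher and 1.1% lower. Cldn3 was at 0.43 ± 0.42, with 0.50, 0.40 and 0.59 from its other 3 probe sets. Cldn4 was at 0.35 ± 0.31, Cldn1 at -0.31 ± 0.40 and Krt19 at -0.18 ± 0.25. The 95% intervals ran from -0.45 to 1.32 for Cldn3 and from -0.22 to 0.53 for Cldn7, so a 2-fold difference lay outside the interval for Cldn7 and inside it for Cldn3. Of the members 6 were higher and 4 lower with a median of 0.03, where of all genes 53.5% were higher and 46.5% lower and the median was 0.016. The groups of 0 members were free of overlap, beside 2.71% of genes on the higher and 2.09% on the lower side.

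Whether the folinic acid response differed between genotypes was tested by the interaction, the response in mutants minus that in wild type. None of 10 members passed, with 0% of probe sets called in either direction. Cldn3 was at -1.67 ± 0.59 (unadjusted p = 0.0122, adjusted p = 0.905), the 1 member with an unadjusted p under 0.05, beside 2.9% of genes on the lower side and 2.09% on the higher. The other 3 Cldn3 probe sets gave -1.86, -1.70 and -1.76. Without mutant folinic acid replicate 2 the Cldn3 value was -2.07 ± 0.47, with an adjusted p of 0.198. Cldn10 was at 1.14 ± 0.97 and Krt19 at -0.59 ± 0.36. Of the members 8 were lower and 2 higher, where 51.8% and 48.2% of genes were, and their median was -0.22 beside -0.01 over all genes.

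Genotype under saline asks what the mutation did without added folate. None of 10 members passed, and the 1 probe set called, 0.00444% of those tested on the higher side, was that of Erdr1, named here after its value was seen. Cldn3 was at 0.93 ± 0.42, 1.90-fold higher in mutants (unadjusted p = 0.0411, adjusted p = 0.9998), the 1 member with an unadjusted p under 0.05, beside 1.28% of genes on the higher side and 1.54% on the lower. The other 3 Cldn3 probe sets gave 0.99, 0.92 and 0.94. Cldn7 was at 0.34 ± 0.18 and Cldn10 at -0.73 ± 0.68. The smallest differences were those of Epcam at 0.05 ± 0.29, Krt8 at 0.07 ± 0.32 and Cldn1 at 0.14 ± 0.40. The median was 0.11 with 7 members higher and 3 lower, where 49.4% and 50.6% of genes were. Of the members 0 had groups free of overlap, beside 2.22% of genes higher and 2% lower.

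Genotype under folinic acid asks whether mutants differed once folate had been given. None of 10 members passed, and Erdr1 was again the 1 probe set called (0.00444%, on the higher side). An unadjusted p under 0.05 was found for 0 members by their representative probe sets, beside 1.51% of genes higher and 2.42% lower, and 0 had groups free of overlap, beside 1.73% and 3.27%. Of the members 3 were higher and 7 lower, where 46.7% and 53.3% of genes were, with a median of -0.10. Cldn3 was at -0.75 ± 0.42, and its other 3 probe sets gave -0.87, -0.78 and -0.83, the last with an unadjusted p of 0.0449 (adjusted p = 0.9994). Krt19 was at -0.36 ± 0.25 and Cldn10 at 0.41 ± 0.68. These 4 comparisons share groups in pairs, so the Cldn3 values in them are not independent of each other. Averaged over injections the genotype difference called 0 members (0.00444% of probe sets higher, Erdr1), and 0 had an unadjusted p under 0.05, beside 0.674% of genes higher and 1.17% lower. The second Epcam probe set, read beside the representative one, was at -0.48 ± 0.20 there (unadjusted p = 0.0280, adjusted p = 0.9999), against 0.04 ± 0.21 for the first. In that comparison 4 members were higher and 6 lower, where 46.9% and 53.1% of genes were. Averaged over genotypes folinic acid called 0 members (0.00444% of probe sets lower, 1 with no gene symbol), with 3 members higher and 7 lower beside 52.2% and 47.8% of genes. In the latter Krt19 was at -0.47 ± 0.18, with an unadjusted p of 0.0190 and an adjusted p of 0.426, beside 4.32% of genes on the lower side and 4.51% on the higher.

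Whether the members vary together between uteri was asked over the 14 arrays, with 45 pairs tested and p adjusted over them. Krt8 and Krt18, the keratin pair whose promoters are shown above, had r = 0.94 (permutation p = 1e-05, the smallest that 100000 resamples give, adjusted p = 4.50e-04) and rho = 0.89 (permutation p = 6.00e-05). The correlation was 0.90 without the 2 arrays farthest from the median and 0.96 with group means removed (adjusted p = 0.0265). Krt18 and Krt19 had r = 0.79 (permutation p = 4.50e-04, adjusted p = 0.0101) and rho = 0.87 (permutation p = 1.20e-04), 0.82 without the 2 farthest arrays and 0.76 with group means removed, where the adjusted p was 0.114. These were the 2 of 45 pairs that passed. Over all pairs 35 were positive and the median r was 0.34.

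The claudins did not form such a block, and no pair of claudins passed. Cldn3 had r = 0.52 with Cldn7 (permutation p = 0.0585, adjusted p = 0.158). With Cldn1 it had 0.51 (permutation p = 0.062, adjusted p = 0.158). With Krt19 it had 0.66 (permutation p = 0.00991, adjusted p = 0.0892). Cldn3 and its neighbour Cldn4 had r = -0.09 (permutation p = 0.756, adjusted p = 0.83) and rho = -0.16 (permutation p = 0.575), and -0.73 without the 2 farthest arrays, wild-type saline replicate 1 and mutant folinic acid replicate 1. Cldn3 and Cldn10 had r = -0.67 (permutation p = 0.00889, adjusted p = 0.0892), rho = -0.64 (permutation p = 0.0153), -0.55 without the 2 farthest arrays and -0.61 with group means removed. Cldn4 went with Krt7 instead, at r = 0.71 (permutation p = 0.00447, adjusted p = 0.067) and rho = 0.54 (permutation p = 0.0498), with 0.73 without the 2 farthest arrays. Wild-type saline replicate 3, the array with the highest actin ratio, weighed on the count of pairs. Without it 9 pairs passed, among them Cldn3 with Cldn10 (r = -0.79, adjusted p = 0.0128) and Cldn3 with Krt8, Krt18 and Krt19 (r = 0.71, 0.77 and 0.71). Without mutant folinic acid replicate 3, 4 pairs passed, and without replicate 1 of that group the Krt18 and Krt19 pair did not pass (r = 0.71).

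**Figure D4:**
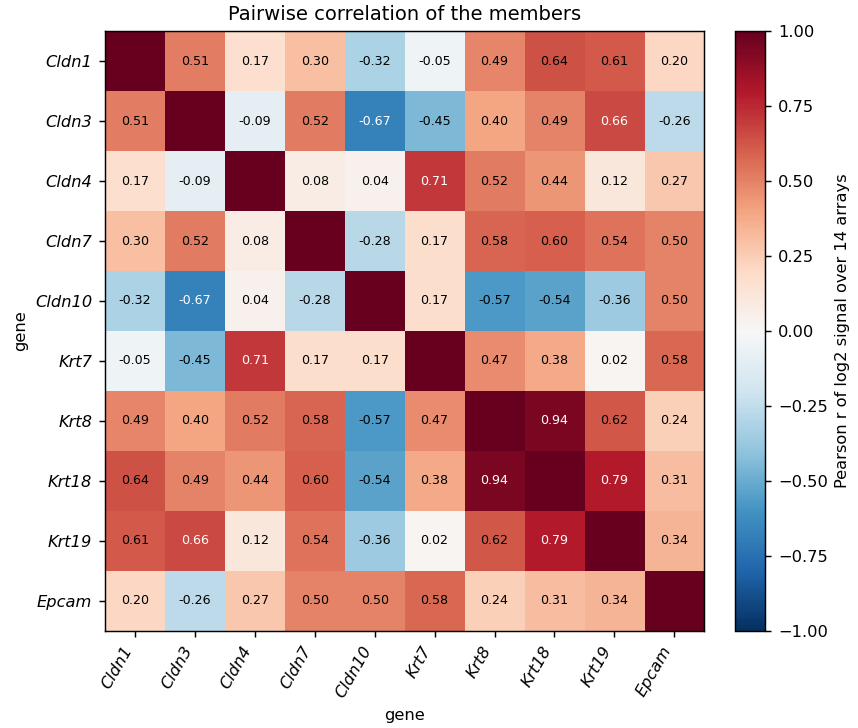
Pearson r of log2 signal over 14 arrays for each pair of members (both axes are genes), red positive and blue negative. The Krt8, Krt18 and Krt19 block is red, at 0.94, 0.79 and 0.62, and Cldn10 is blue against Cldn3, Krt8 and Krt18.

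Against the mean of the other 9 members, Krt18 had r = 0.73 and Krt19 0.66, while Cldn3 had 0.04 and Cldn10 -0.42, each as a description over 14 arrays that share the scaling. Genes entered that mean centred but without being set to equal spread, so Cldn10, the widest, weighed most for the others. Taken singly, Cldn3 was positive with Krt19 (0.66), Cldn7 (0.52), Cldn1 (0.51), Krt18 (0.49) and Krt8 (0.40). It was negative with Cldn10 (-0.67), Krt7 (-0.45), Epcam (-0.26) and Cldn4 (-0.09). The actin ratio moved with several members, at r = 0.64 for Krt8 (adjusted p over 10 genes 0.0511), 0.64 for Krt18, 0.59 for Cldn1 and -0.64 for Cldn10, and none of 10 passed by permutation. Spearman's rho was 0.64 for Krt8, 0.60 for Krt18, 0.70 for Cldn1 and -0.51 for Cldn10, where 0 of 10 passed too. Cldn3 had r = 0.32 and Krt19 0.24. Without wild-type saline replicate 3 and mutant folinic acid replicate 3 these were 0.77 and 0.62, while Cldn4 and Krt7 were at -0.24. The ratio was uneven between the mutant groups, at 3.00, 3.01 and 2.11 with saline and 1.54, 2.19, 3.12 and 1.74 with folinic acid. With that ratio as a covariate, the folinic acid difference in mutants was 0.005 ± 0.27 for Krt8, 0.62 ± 0.61 for Cldn10, -0.76 ± 0.28 for Krt19 and -1.10 ± 0.45 for Cldn3 (adjusted p = 0.324).

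**Figure D5:**
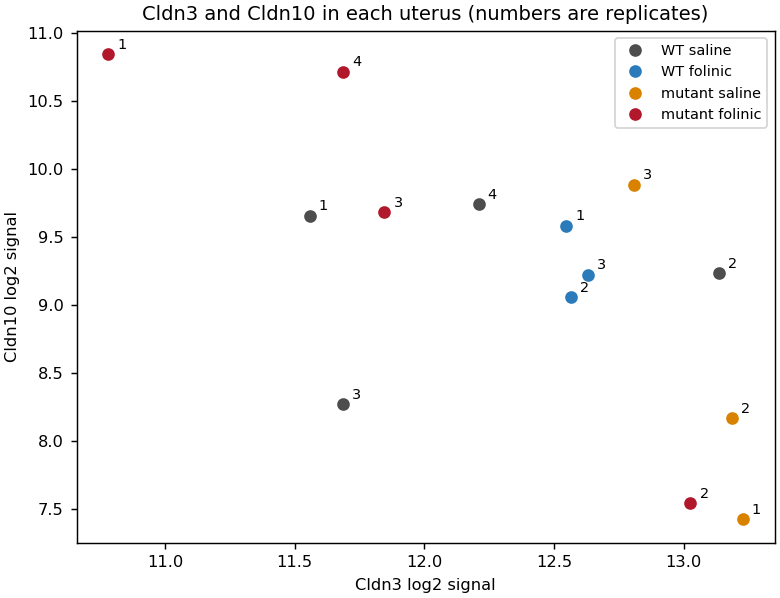
Cldn3 against Cldn10 log2 signal in each uterus, coloured by group, with the replicate number beside each point. Mutant folinic acid replicates 1, 3 and 4 lie at low Cldn3 and higher Cldn10, and replicate 2 lies at the lower right beside mutant saline replicates 1 and 2.

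The other genes of the junction were read from lists, of which 0 genes passed in any of the 7 comparisons. Of 14 tight junction partners measured, 6 were higher and 8 lower after folinic acid in mutants, with a median of -0.02. Ocln, the tight junction protein occludin, was at -0.72 ± 0.28 (adjusted p = 0.307), the polarity gene Pard6b at 0.63 ± 0.24 and Patj, a scaffold of the apical Crumbs complex, at -0.43 ± 0.21. Among 6 other claudins measured of 15 on the array the median was -0.12, with Cldn12 at 0.28 ± 0.16, Cldn8 at 0.43 ± 0.31 and Cldn22 at -0.58 ± 0.44. In the adherens junction and desmosome list 9 of 16 were higher, with a median of 0.07. Ppl, the desmosomal plaque protein periplakin, was at -0.96 ± 0.28 (adjusted p = 0.194) in that comparison and at -1.48 ± 0.39 for the interaction (adjusted p = 0.905), and its mutant signals were 886, 1013 and 951 with saline and 324, 806, 468 and 465 with folinic acid. Replicate 2 was again the highest of the 4, as for Cldn3, and here the groups did not overlap. Dsc2, a desmosomal cadherin, was at 0.74 ± 0.32 and Ctnnb1, beta-catenin, at -0.28 ± 0.13.

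Regulators of epithelial genes were mostly lower after folinic acid in mutants, 8 of 9 with a median of -0.38, beside 49.8% of all genes and a median of 0.001. Ehf, an epithelial ETS factor, was at -0.53 ± 0.18 (adjusted p = 0.261), Sox17, a factor of the uterine epithelium, at -1.02 ± 0.40 (adjusted p = 0.310) and Pax8, a factor of the female reproductive tract, at -0.45 ± 0.26. Relatives of Epcam and surface proteases were at a median of -0.27 with 9 of 10 lower, among them the tetraspanin Cd9 at -0.51 ± 0.18 (adjusted p = 0.270), the vesicle GTPase Rab25 at -0.39 ± 0.21 and Cdcp1 at -0.34 ± 0.24. For genotype under saline these 2 lists leaned the other way, with medians of 0.35 (8 of 9 higher) and 0.30 (8 of 10 higher), and Cdcp1 was at 0.75 ± 0.24. The 2 comparisons share the mutant saline uteri.

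The other keratins, mostly of stratified epithelia, were read beside the members. Of 7 measured, 5 were higher in wild type once folinic acid had been given, and the list's median was 2.13. An unadjusted limma p under 0.05 was found for 4 on the higher side and 1 on the lower, beside 1.23% and 1.1% of genes. Krt15 was at 3.28 ± 1.14 (unadjusted p = 0.0114), Krt13 at 2.49 ± 1.04 and Krt80 at -0.67 ± 0.27. Summed signal of all 14 genes of the list ran from 1008 to 4019 in wild type with saline and from 2452 to 12135 with folinic acid, so the groups overlapped. For folinic acid in mutants the median was 0.55, with Krt23 at 0.55 ± 0.34 and Krt14 at 0.95 ± 1.19. None of these passed the threshold.

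Markers of other cells are given beside Cldn3 in the mutant uteri. All 5 leukocyte markers measured of 7 were higher after folinic acid, with a median of 0.91, while Cd3e and Cd79a were below the filter. Cd68 was at 1.04 ± 0.44, Csf1r at 0.79 ± 0.34 and Adgre1 at 1.15 ± 0.53, none past the threshold. Their summed signal was 29699, 5267, 8482 and 11553 in mutants with folinic acid and 4098, 6825 and 8502 with saline. It ranged from 5729 to 13691 in wild type with saline and from 7024 to 8705 with folinic acid. Replicate 1, with the lowest Cldn3, had the highest sum, and replicate 2 the lowest of its group. For genotype under saline and for folinic acid in wild type all 5 were lower, with medians of -0.54 and -0.09. Over 14 arrays the mean of these 5 genes had r = -0.82 with Cldn3 and 0.78 with Cldn10, and their part in the Cldn3 and Cldn10 differences was not tested.

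Luminal epithelium markers did not move as 1 block after folinic acid in mutants, with 4 of 7 higher and a median of 0.20. The 4 higher ones were Ltf, Muc1, Wnt7a and Wnt7b, and 1 of them had an unadjusted limma p under 0.05. So did the 3 lower ones, Calb1, Lpar3 and Ihh, whose values are given next. Of all genes 6.94% were on the lower side and 6.39% on the higher side at that p. Calb1, a calcium-binding protein, was at -2.33 ± 0.63 (adjusted p = 0.164), with 29458, 25756 and 19580 under saline against 2550, 19794, 8365 and 1336 under folinic acid. The lysophosphatidic acid receptor Lpar3 was at -1.75 ± 0.67 and the hedgehog ligand Ihh at -1.61 ± 0.56. For Calb1 replicate 2 lay within the mutant saline range and the other 3 uteri below it. Lpar3 was at 1623, 1641 and 1237 with saline and at 135, 2190, 469 and 276 with folinic acid, so replicate 2 was the highest of the 7 mutant uteri and the other 3 were the lowest. Summed signal of the 7 luminal markers overlapped, at 50047, 33597 and 37358 with saline and 30936, 32393, 36372 and 36098 with folinic acid. In the stroma list 7 of 8 were lower with a median of -0.19, among them the collagen Col3a1 at -0.63 ± 0.12 (adjusted p = 0.120). Its summed signal was 119794 to 150598 in mutants with saline and 108159 to 115749 with folinic acid, and in wild type it was 124255 to 139981 and 101646 to 109880. The part of these lists in the member values was not tested.

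The genes most like the members were those with the highest Pearson r with their mean over the 14 arrays. They were the ceramide synthase Cers3 (0.91), the non-coding RNA gene Rmst (0.89), the receptor tyrosine kinase Erbb3 (0.89), the epithelial protease Prss8 (0.88), the desmosomal cadherin Dsg2 (0.87) and Wfdc2 (0.84), a secreted epithelial protein. Elmo3 (0.84), Pax8 (0.84), Camsap3, a microtubule minus-end protein (0.83), and Sh3bgrl2 (0.83) followed. These are descriptions of genes picked for their likeness, without a test. Chosen after the values were seen, the gene closest to Krt8 was Cdh1, the epithelial cadherin (0.97). The one closest to Cldn3 was Mab21l3 (0.97), and the lipid exporter Abca1 was farthest from it at -0.90.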

How the data were processed

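The authors deposited 1 intensity signal per probe set and array on a linear scale, and the submitters' processing notes name MAS5. The trimmed mean signal was 500.002 to 500.003 on each array, so each had been scaled. Signals under 1 were raised to 1 (0.505% of values), put on the log2 scale here, and the deposited scaling was kept. Of 45101 probe sets, 64 controls were left out, and those with a mean log2 signal at or above the median (a signal of 134) were kept, 22519 for 11269 genes. Symbols were updated by gene identifier (34741 of 34945 probe sets with 1 symbol matched RefSeq).

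limma 3.58.1 in R 4.3.3 was fitted on 4 group means with a variance trend (10 residual degrees of freedom), two-sided, with Benjamini-Hochberg adjustment over 22519 probe sets. Errors are SE of that fit unless marked SD. All members were named, with up to 3 genes of smallest p per list and the 10 genes most like the members. The members and lists were chosen with earlier results of these data known. The labels call the replicates biological, and some title numbers recur, so p-values measure the spread between arrays. The fits and correlations were tested on simulated data. Alternatives were normalization, offset, filters, variance options, array weights, blocks, an actin covariate and leaving out each array, with leaving out arrays for the pairs added after the data were seen. The number of arrays limits the precision.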

Additional observations from a re-analysis of the deposited data

Results flagged for a closer look

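In the 20 sets of 4 arrays tested (10 genes in each group of 4), 2 arrays stood apart from the others of their group by more than 0.829 of the group's range, where chance gives about 1 in 20. Cldn4 was 601 in wild-type saline replicate 3 and 266 to 278 in the other 3 uteri, a gap of 0.964 of the range. Krt7 was 2555 in mutant folinic acid replicate 4 and 1661 to 1802 in the others, a gap of 0.842 of the range. The rule was run on linear signal and its rate holds for normally distributed values. It was not run on the log2 scale, where a gap just over 0.829 need not be flagged.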

How the results depend on the processing

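Across 26 settings, 1 of 1790 member values had an adjusted p under 0.05, that of Cldn3 for folinic acid in mutants without mutant folinic acid replicate 2 (-1.64), where the count of members was 1 (0 to 1 over the arrays left out). In the other comparisons the count was 0 in every setting. No member was called in the main fit, so the settings could not show whether the direction of a called value holds. Some uncalled values did change sign, most often that of Epcam for folinic acid averaged over genotypes (10 of 25 settings). The median of the members for folinic acid in mutants ranged from -0.35 to -0.13. For the 45 pairs, 1 passed with group means removed against 2 in the main result, and leaving out 1 array gave 2 to 9.

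The number of probe sets called for folinic acid in mutants was 0 and became 2 without the filter, 103 with array weights and 662 without mutant folinic acid replicate 2. For genotype under saline it was 1 and became 2 with the offset of 16, without that array or with the groups compared alone, and 3 without the filter. Under folinic acid it was 1 and became 2 with the offset or without the filter. Averaged over injections it was 1 and became 2 with the offset or without mutant folinic acid replicate 1, and 3 without the filter. For folinic acid averaged over genotypes it was 1 and became 0 with 1 probe set a gene or without wild-type folinic acid replicate 2, mutant saline replicate 1 or mutant saline replicate 3. It became 2 with the actin covariate or without wild-type saline replicate 4, 118 when wild-type folinic acid replicate 3 was left out, 150 when mutant folinic acid replicate 2 was, and 245 with array weights. The causes were not tested.

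Deviations from the group mean had r from -0.34 to 0.35 between arrays with the same replicate number, over 0.1 in 6 of 18 pairs. Arrays with different numbers were not compared, so these values cannot decide whether same-numbered samples share more than a number. With the title number as a random block, the estimated correlation within a block was 0.16. With a replicate block 0 members were called, and Cldn3 was at -1.22 (adjusted p = 0.278) and Krt19 at -0.83 (adjusted p = 0.312) for folinic acid in mutants.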
